A study of Mus musculus with 6 samples.

Results

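The 9 genes described here encode core parts of the PI3K and mTOR growth pathway: Pik3ca, Akt1, Tsc1, Tsc2, Rheb, Mtor, Rptor, Rictor and Deptor. They were chosen by name, with earlier results of these data known. All 9 were found among 28738 gene IDs, and all 9 were among the 17450 genes kept after a filter on low values. RNA was sequenced from fully-grown mouse oocytes at the germinal vesicle stage, the prophase arrest before meiotic maturation, on a mixed C57/Bl6/N;129SvEv7 background. Control oocytes were compared with Uba3 conditional knockout (Uba3 cKO) oocytes, in which the gene for the catalytic subunit of the NEDD8-activating enzyme was targeted. There were 3 libraries per group, and about 150 oocytes were pooled for a library. The Cre driver, the floxed allele, the genotype of the controls beyond their label and the age of the mice are not given in the sources used here, nor is it stated whether different pools came from different mice. The p-values therefore rest on the spread between pools, which may be technical.

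Growth factor receptors activate PI3K, whose lipid product recruits the kinase AKT to the membrane. AKT inhibits the TSC complex, which otherwise keeps the small GTPase RHEB inactive, and active RHEB switches on mTOR complex 1, the kinase complex that promotes protein synthesis and restrains autophagy. In the ovary this pathway is known for waking dormant oocytes and for supporting their growth. Several of its proteins are known substrates of cullin-RING ubiquitin ligases, which need NEDD8 for full activity, and DEPTOR, an inhibitor of mTOR, is a well-known case. The values here are of RNA and do not show protein levels.

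Levels are given as deposited, in normalized log2 units of the authors, and differences are Uba3 cKO minus control on that scale. Sequencing depth is unknown. Pearson correlations between libraries, taken across genes, were 0.9968 to 0.9981 within groups and 0.9948 to 0.9971 across them. Uba3 stood at 11.37, 11.46 and 11.34 in control replicates 1 to 3 and at 10.03, 10.16 and 10.36 in the Uba3 cKO libraries, 2.31-fold lower (difference -1.21, SE 0.10, adjusted p = 2.07e-05 in limma). All 12 oocyte markers checked were kept, with means from 8.47 for Figla to 16.92 for Bmp15. Markers are said to rise or fall where the adjusted p in limma was under 0.05. Over all kept genes 5.64% rose and 2.50% fell by this rule. Of the 12 oocyte markers 2 fell and none rose. Their summed linear level was 500455 to 561074 in control and 437249 to 485110 in Uba3 cKO libraries. Markers of other ovarian cells were also present, and those of theca and stroma moved with the groups. Of 10 kept theca and stroma markers 5 fell and none rose, and the summed linear level of all 11 was 3220 to 5242 in control and 2227 to 2885 in Uba3 cKO libraries. The lowest of them, Tcf21, had a mean of 2.64 and the highest, Hsd3b1, a mean of 10.62. Of 14 granulosa and cumulus markers 2 rose and 2 fell, with sums of 19841 to 24159 in control and 17328 to 22757 in Uba3 cKO libraries and Foxl2 lowest at 4.78. Of 6 endothelial markers 1 fell (3655 to 3988 and 3731 to 4250), as did 2 of 7 blood and immune markers (562 to 675 and 513 to 563). Means ran from 3.99 for Emcn to 11.30 for Pecam1 among endothelial markers. Among blood and immune markers they ran from 3.77 for Adgre1 to 8.14 for C1qb. A linear sum mostly follows the highest genes of its list, so it need not stand for the low markers. The part of these markers in the results below was not tested. In pooled samples, fewer cells of a type and less RNA per cell cannot be told apart.

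Of the 9 genes, Rptor rose in Uba3 cKO oocytes and the other 8 missed the threshold, which was 0.05 for the p-value of limma adjusted by Benjamini-Hochberg. Over all kept genes, 8.14% passed it (called genes), 5.64% as higher and 2.50% as lower, so 1 of 9 is close to the share of the whole table. The differences of the 9 genes ran from -0.15 to 0.38, with a median of 0.02 beside -0.01 for all kept genes. The control and Uba3 cKO libraries did not overlap for 5 of the 9 genes, 3 higher and 2 lower, against 27.9% of all kept genes in either direction and 15.1% as higher. An unadjusted p under 0.05 was found for 3 of the 9 and for 22.8% of all kept genes. The plot of values by library shows these patterns.

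**Figure D1:**
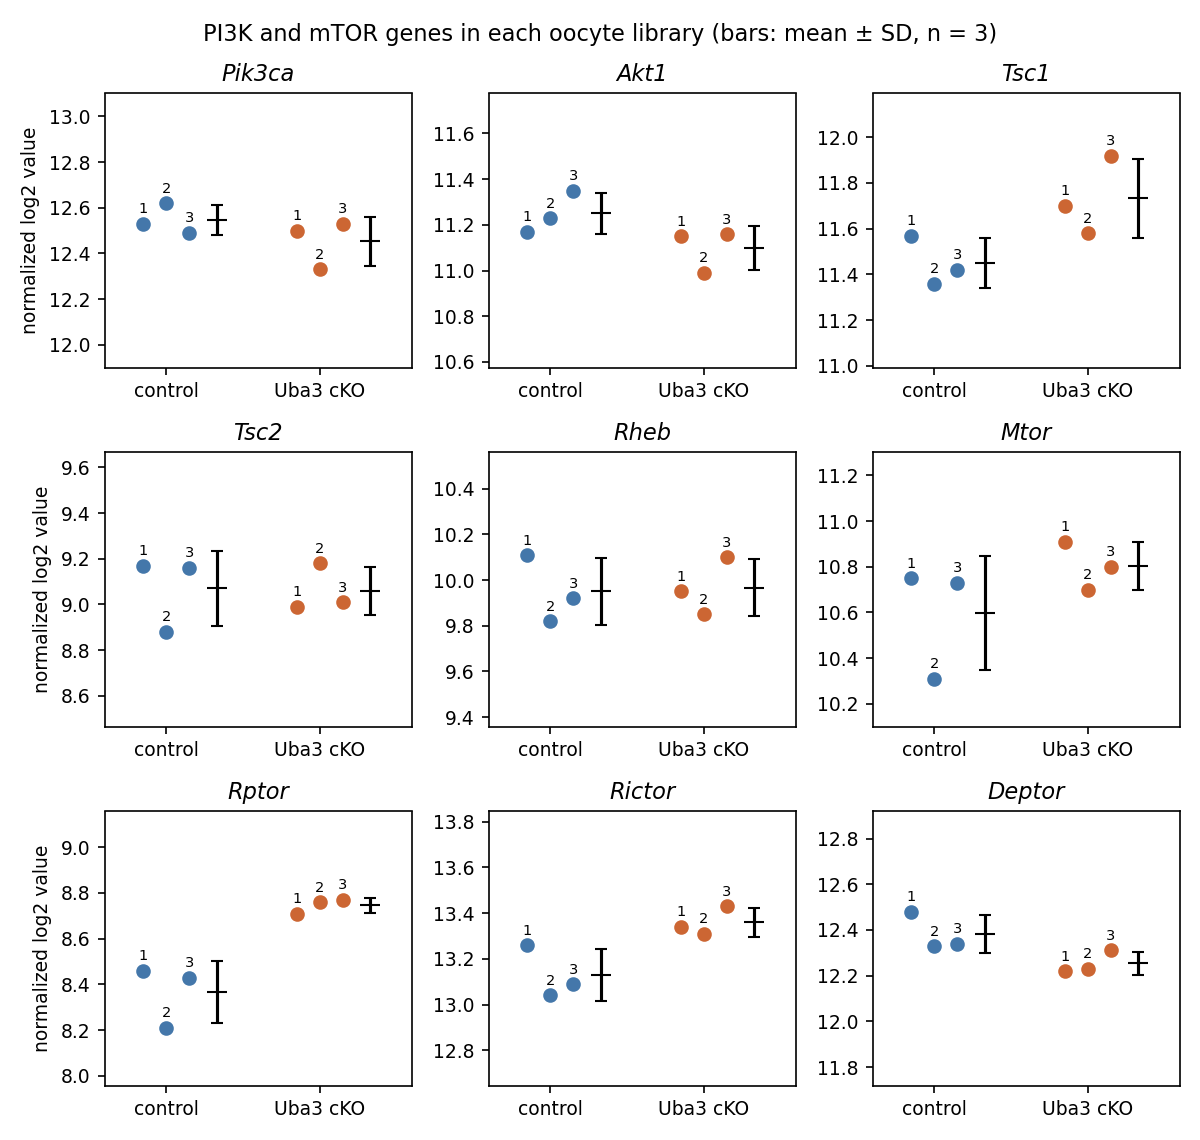
Normalized log2 values (y axis, each panel spanning the same range) of the 9 genes in control (blue) and Uba3 cKO (orange) libraries, numbered by replicate, with the mean ± SD of each group (n = 3) in black. The Uba3 cKO libraries of Rptor lay between 8.71 and 8.77, above the controls at 8.21 to 8.46, and control replicate 2 was the lowest library for 6 of the 9 genes.

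Neither of the upstream kinases was called. Pik3ca (ENSMUSG00000027665, chromosome 3) encodes the p110-alpha catalytic subunit of class I PI3K. Its values were 12.53, 12.62 and 12.49 in the control libraries and 12.50, 12.33 and 12.53 in the Uba3 cKO libraries. The groups overlapped, and the difference was -0.10 (95% interval -0.29 to 0.09, adjusted p = 0.555 in limma). It was -0.03 without Uba3 cKO replicate 2, the lowest library. Akt1 (ENSMUSG00000001729, chromosome 12) encodes the kinase that PI3K signalling activates. It stood at 11.17, 11.23 and 11.35 in control and at 11.15, 10.99 and 11.16 in Uba3 cKO libraries. All 3 Uba3 cKO libraries were below the lowest control, but by as little as the second decimal, and the difference of -0.15 (95% interval -0.35 to 0.05) had an adjusted p of 0.366 in limma. Correcting the libraries for the length and GC content of transcripts, an alternative chosen after seeing the data, gave -0.19 for Pik3ca and -0.07 for Akt1.

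Between genes, levels were compared after subtracting log2 of the length in kb of the longest annotated transcript, which need not be the one that oocytes use. On this per-length scale Akt1 was 8.39-fold above its paralog Akt2 in control oocytes. Pik3ca was 20.1-fold above Pik3cb, while Pik3cd, the catalytic subunit best known from blood cells, was 4.35-fold above Pik3ca and headed the whole set at 11.52 ± 0.14 (SD, n = 3). Within each library, the log2 ratio of Akt1 to Akt2 was 2.31 ± 0.07 in control and 2.27 ± 0.11 in Uba3 cKO oocytes (SD, n = 3, exact two-sided permutation p = 0.8). That of Pik3ca to Pik3cb was 4.79 ± 0.17 and 4.59 ± 0.23 (SD, n = 3, exact two-sided permutation p = 0.3). This difference of -0.20 was -0.11 without replicate 2 of either group and -0.33 without Uba3 cKO replicate 3. A constant added to all log2 values of a library cancels in these ratios. The transform of the deposited values is not named, and any effect of it that differs between genes would not cancel.

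Neither of the genes for the core of the TSC complex, which inhibits RHEB, was called. Tsc1 (ENSMUSG00000026812, chromosome 2) encodes hamartin, which stabilizes the TSC complex. It stood at 11.57, 11.36 and 11.42 in control and at 11.70, 11.58 and 11.92 in Uba3 cKO libraries. The groups did not overlap, with Uba3 cKO replicate 2 just above control replicate 1. The difference was 0.28 (SE 0.10, 95% interval 0.06 to 0.51), and its adjusted p of 0.119 in limma missed the threshold. Tsc2 (ENSMUSG00000002496, chromosome 17) encodes tuberin, the subunit that acts on RHEB. Its values were 9.17, 8.88 and 9.16 in control and 8.99, 9.18 and 9.01 in Uba3 cKO libraries, fully interleaved, with a difference of -0.01 (95% interval -0.25 to 0.23, adjusted p = 0.968 in limma). Exons of Tsc2 share 693 bases with those of Pkd1 on the opposite strand, and the strand setting of the counting is unknown, so some reads of Tsc2 could be of Pkd1. The log2 ratio of Tsc1 to Tsc2 within a library was 2.40, 2.48 and 2.27 in control and 2.71, 2.40 and 2.91 in Uba3 cKO oocytes, a difference of 0.29 that the spread does not separate from 0 (exact two-sided permutation p = 0.3, adjusted over the 5 ratios 0.375). Leaving out a single Uba3 cKO library moved it to as low as 0.17 (replicate 3) or as high as 0.43 (replicate 2).

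Rheb (ENSMUSG00000028945, chromosome 5), the GTPase between the TSC complex and mTOR, did not differ between the groups beyond the spread of the libraries. It stood at 10.11, 9.82 and 9.92 in control and at 9.95, 9.85 and 10.10 in Uba3 cKO libraries. The difference was 0.02 (95% interval -0.22 to 0.25, adjusted p = 0.947 in limma), and the interval does not show that the groups are alike.

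Promoter windows of RefSeq (GRCm38.p6, the 250 bases before each annotated start) were matched for 8 of the 9 genes, in 9 windows because Akt1 has a pair of starts. They were searched on both strands for CACGTG, the core bound by TFEB and TFE3, transcription factors that mTOR complex 1 restrains, and for GTAAACA, the core bound by FOXO factors, which AKT restrains. CACGTG was found for 1 gene, Rheb, and in 6.02% of all 32851 windows. GTAAACA was found for 1 gene, Akt1, at its outer start, and in 3.17% of all windows. The motifs do not overlap each other. Both stretches are shown because they are the only matches among the 8 genes searched. Deptor had no matched window and was not searched. The match is in capitals, and that of Akt1 reads as the reverse complement. The Rheb stretch is from chr5:24842432-24842477 and that of Akt1 from chr12:112675019-112675065, both on the minus strand. The matches begin 96 and 161 bases before the annotated starts. They describe letters in these windows and do not show that a factor binds.
Rheb: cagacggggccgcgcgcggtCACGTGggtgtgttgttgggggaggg
Akt1: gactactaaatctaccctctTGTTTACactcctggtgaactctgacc

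Mtor and the scaffolds of its 2 complexes all had positive differences, and only that of Rptor was called. Rptor (ENSMUSG00000025583, chromosome 11) encodes RAPTOR, the scaffold that defines mTOR complex 1 and presents substrates to it. It stood at 8.46, 8.21 and 8.43 in control and at 8.71, 8.76 and 8.77 in Uba3 cKO libraries. The Uba3 cKO libraries lay close together, and all 3 were above every control. Rptor rose by 0.38 (SE 0.10, 95% interval 0.16 to 0.60), a 1.30-fold change, with an adjusted p of 0.0391 in limma. The call was near the threshold. It ended without control replicate 2 (0.30, adjusted p = 0.141) and without any other single library except control replicate 1, where the difference was 0.43 (adjusted p = 0.0297), and it ended with no filter on low values (0.38, adjusted p = 0.0516). In all 6 refits the difference stayed between 0.30 and 0.43. Exons of Rptor share 84 bases with those of the opposite-strand gene Rptoros, which was not analysed here.

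Rictor (ENSMUSG00000050310, chromosome 15) encodes the scaffold that defines mTOR complex 2, which phosphorylates AKT. Its values were 13.26, 13.04 and 13.09 in control and 13.34, 13.31 and 13.43 in Uba3 cKO libraries. The groups did not overlap, and the difference of 0.23 (SE 0.08, 95% interval 0.05 to 0.41) had an adjusted p of 0.117 in limma. It was called without control replicate 1 (0.29, adjusted p = 0.0432) and with limma's sample weights (0.24, adjusted p = 0.0496). The length and GC correction moved it to 0.13 (adjusted p = 0.291) and left Rptor at 0.38 (adjusted p = 0.0237). Mtor (ENSMUSG00000028991, chromosome 4), the kinase shared by both complexes, stood at 10.75, 10.31 and 10.73 in control and at 10.91, 10.70 and 10.80 in Uba3 cKO libraries. The groups overlapped, and control replicate 2 was far below the other libraries. The difference was 0.21 (95% interval -0.05 to 0.47, adjusted p = 0.335 in limma), and without control replicate 2 it was 0.06.

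The scaffolds of mTOR complexes 1 and 2 differed far more in level than either differed between the groups. On the per-length scale Rictor was at 9.91 ± 0.11 and Rptor at 5.65 ± 0.14 in control oocytes (SD, n = 3), a 19.2-fold gap. Rictor was the highest of the 9 genes and Rptor the lowest. Mtor lay between them, 5.32-fold below Rictor and 3.61-fold above Rptor. Within each library the deposited log2 value of Rptor minus that of Rictor was -4.79, -4.83 and -4.66 in control and -4.62, -4.56 and -4.66 in Uba3 cKO oocytes. The groups met at the second decimal, and the difference was 0.15 (exact two-sided permutation p = 0.1, the smallest that 3 against 3 libraries allow, adjusted over the 5 ratios 0.25). A rise of Rptor beyond that of Rictor was thus not shown.

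The promoter windows of this pair are printed in full because Rptor and Rictor stand at opposite ends of the levels. CG dinucleotides are in capitals. The Rptor window (chr11:119602655-119602904, plus strand, GRCm38.p6) had a GC content of 37.6% with 9 CG dinucleotides, and 7.9% of all windows had a lower GC content. The Rictor window (chr15:6708131-6708380, plus strand) had a GC content of 81.2% with 40 CG dinucleotides, and 99.1% of all windows had a lower one. The median window had 52.4% and 6 CG dinucleotides. The other matched genes had windows of 52.0% to 78.4%, and both of these ends were windows of Akt1. Tsc2, the gene next above Rptor in level, was at 62.8%, and Pik3ca at 61.6%. Any link of GC content to level was not tested. RefSeq's start need not be the one used in oocytes.
Rptor: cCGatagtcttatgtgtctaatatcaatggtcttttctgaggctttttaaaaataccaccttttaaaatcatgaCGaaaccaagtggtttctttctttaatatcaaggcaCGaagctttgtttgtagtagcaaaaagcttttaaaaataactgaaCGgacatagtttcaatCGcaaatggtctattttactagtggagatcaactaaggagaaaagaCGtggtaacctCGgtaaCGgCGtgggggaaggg
Rictor: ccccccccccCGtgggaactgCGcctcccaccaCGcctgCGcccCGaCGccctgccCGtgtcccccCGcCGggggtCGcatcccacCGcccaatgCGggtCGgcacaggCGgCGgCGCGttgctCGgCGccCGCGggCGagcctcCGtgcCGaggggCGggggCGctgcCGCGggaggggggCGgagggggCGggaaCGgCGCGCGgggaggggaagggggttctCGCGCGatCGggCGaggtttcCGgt

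Deptor (ENSMUSG00000022419, chromosome 15) encodes an inhibitor that binds mTOR in both complexes. It stood at 12.48, 12.33 and 12.34 in control and at 12.22, 12.23 and 12.31 in Uba3 cKO libraries. All 3 Uba3 cKO libraries were below the lowest control, with Uba3 cKO replicate 3 close to it. The difference was -0.13 (95% interval -0.32 to 0.05, adjusted p = 0.38 in limma). It was -0.22 after the length and GC correction (adjusted p = 0.0901) and -0.08 without control replicate 1, the highest library. Exons of Deptor share 303 bases with those of Gm9920 on the opposite strand, whose mean value was 4.13. On the per-length scale Deptor was 3.47-fold above Mtor in control oocytes. The log2 ratio of Deptor to Mtor was 1.74, 2.02 and 1.61 in control and 1.31, 1.54 and 1.51 in Uba3 cKO libraries. The ratio was lower in every Uba3 cKO library, by 0.34 on average (exact two-sided permutation p = 0.1, the smallest possible, adjusted over the 5 ratios 0.25), and by 0.22 without control replicate 2.

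In order of level per length in control oocytes, the 9 genes ran Rictor, Akt1, Pik3ca, Deptor, Tsc1, Rheb, Mtor, Tsc2 and Rptor. The control libraries of Rictor and Akt1 overlapped, as did those of Pik3ca and Deptor. All other neighbours in this order were separated in these libraries, by 0.43 to 1.07 on the log2 per-length scale. Mapkap1, a subunit of mTOR complex 2, was at 9.86 ± 0.08, close to Rictor, and Mlst8, a subunit of both complexes, was at 6.78 ± 0.16 (SD, n = 3). Other subunits did not follow the scaffolds. Prr5 and Prr5l, also of mTOR complex 2, were below Rictor at 7.36 ± 0.17 and 8.63 ± 0.11 (SD, n = 3). Akt1s1, of mTOR complex 1, was above Rptor at 8.38 ± 0.22 (SD, n = 3). Tbc1d7, the remaining subunit of the TSC complex, was at 5.94 ± 0.25 beside Tsc2 at 6.42 ± 0.16 (SD, n = 3).

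**Figure D2:**
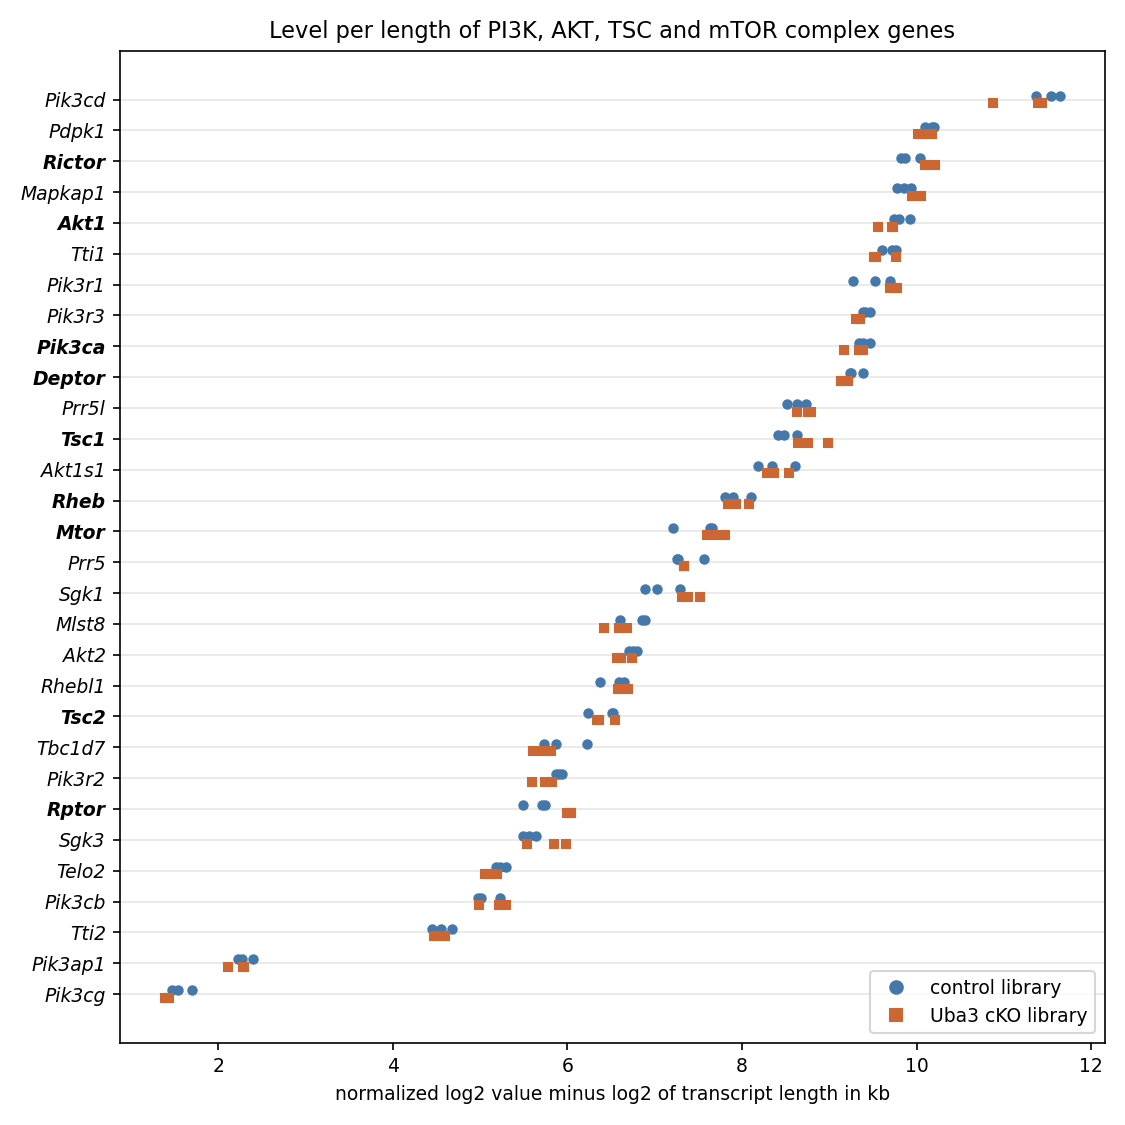
Level per length (x axis, normalized log2 value minus log2 of transcript length in kb) of PI3K, AKT, TSC and mTOR complex genes reported here in each control (blue circles) and Uba3 cKO (orange squares) library, with the 9 genes in bold. Rictor, at 9.91 in control, stood near the top and Rptor, at 5.65, in the lower part of the set.

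Control replicate 2 weighed on several of these differences. It was the lowest of the 6 libraries for Tsc1, Tsc2, Mtor, Rptor, Rictor and Rheb, and the median deviation of the 9 genes from their own means was -0.18 there, against -0.01 to 0.10 in the other libraries. Over 2202 kept genes with a longest transcript above 6 kb, its median deviation was -0.09, and those of the other libraries lay between -0.04 and 0.05. Of the 9 genes, 7 have such long transcripts, and Akt1 and Rheb do not. The part of transcript length in the low values of control replicate 2 was not tested.

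**Figure D3:**
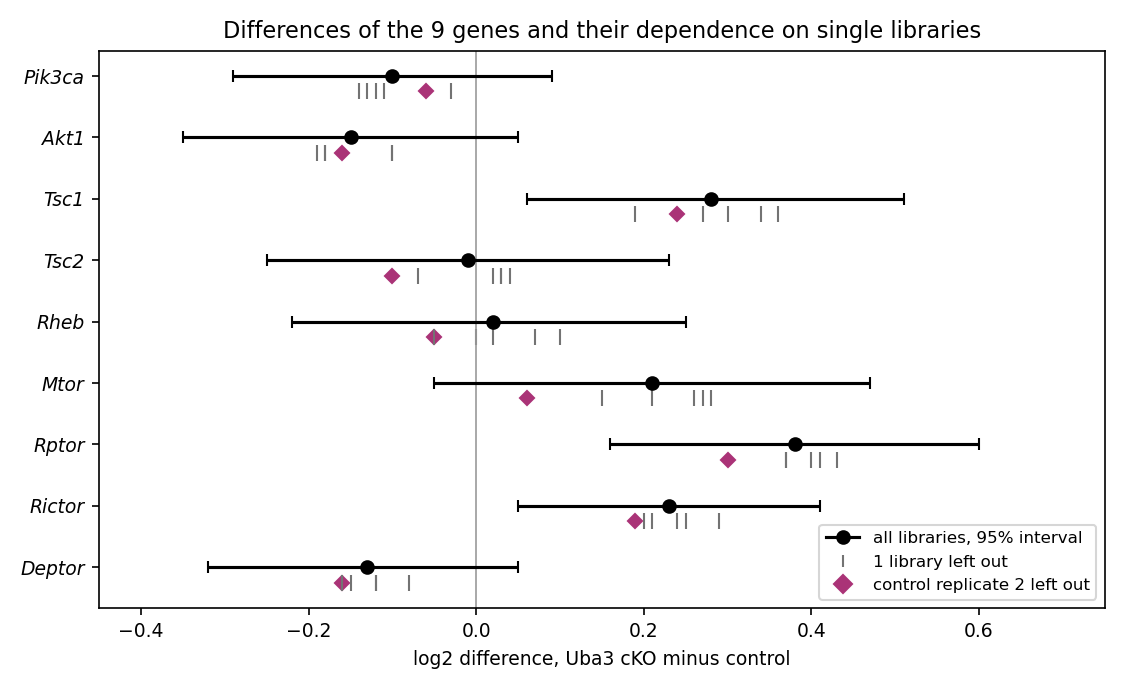
Log2 difference of Uba3 cKO minus control (x axis) for each of the 9 genes, with the 95% interval from limma over all 6 libraries (black) and the value with 1 library left out (grey ticks, diamonds for control replicate 2). Without control replicate 2, Rptor was at 0.30 and Mtor at 0.06.

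For the 3 genes with the smallest adjusted p, the most similar patterns among the wider pathway genes were listed. Likeness was the root mean square difference of deviations from each gene's mean over the 6 libraries, among 154 other kept pathway genes, and the measure used the values that gave the calls. The nearest genes to Rptor were Castor2 (0.06), Rragd (0.07) and Phlpp2 (0.09). For Rictor they were Mapkap1 (0.05), Eif4b (0.05) and Eif4e (0.06), and for Tsc1 they were Rictor (0.07), Eif4e (0.08) and Pik3c3 (0.09).

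The wider pathway was read from 12 lists that hold 150 matched genes beside the 9, of which 146 were kept. Of these, 7 rose, 2 fell and 137 were not called, or 6.16% called against 8.14% of all kept genes. Their median difference was -0.01, the same as that of all kept genes, and the medians of single lists ran from -0.09 to 0.07. The plot of the wider pathway shows the called genes by list.

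**Figure D4:**
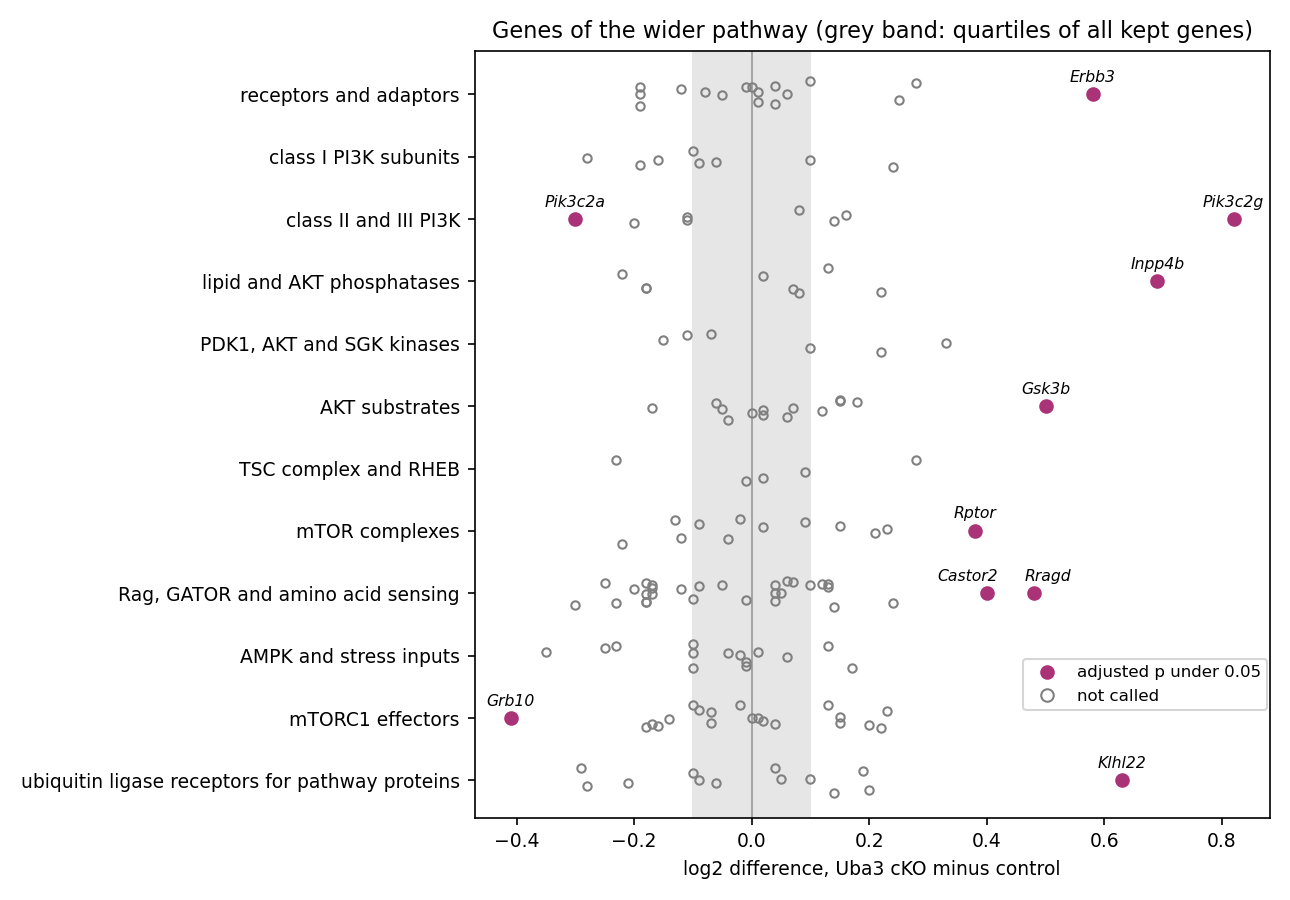
Log2 difference of Uba3 cKO minus control (x axis) for every kept gene of each pathway list (y axis), with called genes filled and named and the others open. The grey band spans the quartiles of all kept genes, from -0.10 to 0.10, and the called genes lie between -0.41 and 0.82.

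At the receptor level, 1 of 17 kept genes rose and none fell. Erbb3, a receptor of the EGF receptor family that couples strongly to PI3K, rose from 7.72 ± 0.10 to 8.30 ± 0.20 (SD, n = 3), by 0.58 (adjusted p = 0.00822 in limma). Kit, the receptor by which oocytes receive Kit ligand, differed by 0.25 (adjusted p = 0.161). None of 8 kept class I PI3K subunits was called. Pik3cd differed by -0.28 (adjusted p = 0.206), and without Uba3 cKO replicate 2, its lowest library, by -0.10.

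The largest change of the wider pathway was in another class of PI3K. Of 8 kept class II and class III genes, Pik3c2g rose and Pik3c2a fell. Pik3c2g, a class II kinase, stood at 7.10, 7.08 and 7.18 in control and at 7.98, 7.79 and 8.07 in Uba3 cKO libraries. No library of one group came near the other, and the rise of 0.82 (SE 0.10) was 1.77-fold, with an adjusted p of 3.14e-04 in limma. Pik3c2a, its far more abundant relative, fell by 0.30 from 13.37 ± 0.10 (SD, n = 3, adjusted p = 0.0383 in limma), a call that ended without any single library (adjusted p up to 0.159). Pik3c3, the class III kinase of autophagy, differed by 0.14 (adjusted p = 0.488).

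Of 9 kept phosphatases that oppose PI3K or AKT, Inpp4b rose and 8 were not called. Inpp4b, a phosphatase that degrades a lipid product of PI3K signalling, rose from 8.30 ± 0.13 to 8.99 ± 0.29 (SD, n = 3), by 0.69 (adjusted p = 0.00729 in limma). None of the 6 kept PDK1, AKT and SGK kinases was called, with Pdpk1, the kinase that activates AKT, at -0.07.

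Among 14 kept AKT substrates, Gsk3b, a kinase that AKT inhibits, rose by 0.50 (adjusted p = 0.0171 in limma) and 13 were not called. When control replicate 2 was left out its call ended, and likewise for Uba3 cKO replicates 1 and 3, with an adjusted p of at most 0.0744. Foxo3, the transcription factor through which PI3K signalling controls dormant oocytes, differed by 0.15 (adjusted p = 0.276). None of the 5 TSC complex and RHEB genes was called, and of 12 subunits and regulators of the mTOR complexes only Rptor was.

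Of 30 kept genes of the Rag GTPases and amino acid sensing, which bring mTOR complex 1 to the lysosome, 2 rose and none fell. Rragd, a Rag GTPase, rose from 6.64 ± 0.16 to 7.13 ± 0.08 (SD, n = 3), by 0.48 (adjusted p = 0.0105 in limma). Castor2, whose paralog CASTOR1 is an arginine sensor, rose by 0.40 (adjusted p = 0.0428 in limma). Both had their lowest value in control replicate 2. Without it the call of Rragd ended (0.39, adjusted p = 0.0575), and that of Castor2 ended without any single library except control replicate 1 (adjusted p up to 0.162).

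None of 14 kept genes of AMPK and stress inputs was called, with Cab39 at 0.01 and Cab39l at 0.13. Both encode scaffolds of LKB1, the kinase that activates AMPK. The difference farthest from 0 was that of Prkaa2, a catalytic subunit of AMPK, at -0.35 (adjusted p = 0.0615 in limma), with no overlap of the groups. Of 20 kept effectors of mTOR complex 1, Grb10, an adaptor that restrains insulin receptor signalling, fell by 0.41 (adjusted p = 0.0343 in limma), and 19 were not called. The call of Grb10 ended without any single library except control replicate 2 (adjusted p up to 0.107).

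Of 13 cullins, substrate receptors and linkers known for ubiquitin ligases that act on pathway proteins, Klhl22 rose and 12 were not called. Klhl22, the CUL3 adaptor known for the turnover of DEPDC5, stood at 8.39, 8.19 and 8.30 in control and at 8.84, 8.90 and 9.02 in Uba3 cKO libraries, with no overlap. It rose by 0.63 (SE 0.10, adjusted p = 0.00229 in limma), while Depdc5, a subunit of the complex that inhibits the Rag GTPases, differed by 0.04 (95% interval -0.21 to 0.29). Btrc and Fbxw11, the CUL1 receptors known for DEPTOR, differed by -0.09 and 0.04, and neither was called. The calls of Erbb3, Pik3c2g, Inpp4b and Klhl22 held in each of the 19 alternatives run.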

How the data were processed

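RNA sequencing of 3 control and 3 Uba3 cKO libraries was analysed from the deposited table. The tools listed in the submitters' processing notes are DESeq2, featureCounts, STAR and fastp, with GRCm39 as the build and no versions or settings. The deposited values are log2 values normalized by the authors, from 0.0363 to 18.01, with no exact 0. The transform is not named. The spread shrinks at low levels, as in a regularized logarithm, which would understate changes of low genes. No counts were used, so depth, and with it any counting error, is unknown. Groups and replicate numbers come from the sample titles.

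Symbols and transcript lengths come from GENCODE M21, of an earlier build, so no gene coordinates are given. The only coordinates printed are those of promoter windows or stretches of them, on GRCm38.p6. Of all IDs, 27660 (96.2%) had a symbol there. Genes with a linear value of 10 or more in at least 3 libraries were kept. The model was that of limma 3.58.1 (R 4.3.3), its variance trend following intensity, and p-values were adjusted by Benjamini-Hochberg over all 17450 kept genes, with calls under 0.05. A run of the fit on simulated data with known changes checked the code only, and its outcome is not reported here. Ratios within a library were compared by exact two-sided permutation.

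The 9 genes and the lists were chosen with earlier results of these data known. From each of the 12 pathway lists, up to 5 called genes were named, or the 2 with the highest values where none was called. Other genes named from the lists (Kit, Foxo3, Prkaa2, Pik3c3, Depdc5, Btrc and Fbxw11) were chosen after their values were seen, as were the subunits given by level. Inpp5j, Kics2 and Prkag3 were not analysed here, and results of some listed genes are not reported here. Alternatives covered the filter, pseudocounts of 1 and 5, scaling, variance model, sample weights, replicate block, threshold and each library left out.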

Additional observations from a re-analysis of the deposited data

How the results depend on the processing

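Of the 9 genes, 1 was called in the reported fit. None was called with no filter on low values, where 28738 genes were tested, or with the replicate number as a block, and 2 (Rptor and Rictor) were called with limma's sample weights. Leaving out 1 library gave 0 to 2 called among the 9 genes, 5 to 11 among the 146 wider genes (9 reported) and 618 to 1637 among all genes (1421 reported). The count over all genes was 2298 with sample weights and 2176 at an adjusted p under 0.10. The deviations of same-numbered libraries correlated at -0.09, -0.20 and -0.05, and no library correlated best with its own number. Between control and Uba3 cKO libraries of different numbers the correlations ran from -0.20 to 0.28. With so few pools, these correlations cannot show whether libraries of the same number share a batch. With the replicate block, the difference of Rptor was 0.38 (adjusted p = 0.0585), that of Pik3c2a -0.30 (adjusted p = 0.082), and the counts were 8 among the wider and 1258 among all genes.

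Signs changed for genes near 0. Leaving out 1 library, Tsc2 ran from -0.10 to 0.04, Rheb from -0.05 to 0.10 and Cab39 from -0.04 to 0.05. After the length and GC correction Rheb and Cab39 were both at -0.02, also with the replicate block, and under quantile normalization Cab39 was at -0.01. The causes were not tested. With the length and GC correction and the block together Castor2 was not called (0.37, adjusted p = 0.0515). Pik3ca, Akt1, Tsc1, Mtor and Deptor kept their sign and stayed uncalled in every alternative run for them. The ratios could not be called in any, since their smallest possible p is 0.1, and that of Akt1 to Akt2 differed by 0.00 without Uba3 cKO replicate 2. The length and GC correction was not run for the ratios. The call of Uba3 held in all 18 alternatives run for it. With 3 libraries a group the 95% intervals of the 8 uncalled genes reach 0.25 or more from 0 on at least 1 side. The lack of a call therefore does not show that a gene is unchanged. Nor is 0.25 a limit above which a change would be called, since Tsc1 at 0.28 was not.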

Other observations

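Members of the wider lists at the low end of the table were dropped by the filter and were tested only in the alternative without it. They were Pik3r5 and Pik3r6, regulatory subunits of the PI3K that answers to G protein-coupled receptors, Sgk2, a kinase related to AKT, and Eif4ebp3, a translation repressor that mTOR complex 1 controls. Pik3cg, the catalytic partner of Pik3r5 and Pik3r6, was kept at the low level of 1.57 ± 0.12 (SD, n = 3) on the per-length scale in control oocytes, where Pik3cd stood at 11.52 ± 0.14.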
